A study of Homo sapiens with 4 samples.

Results

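Transcripts of 9 genes of the epidermal growth factor (EGF) family and its receptors were followed in 4 libraries of poly(A) RNA from human endometrial cancer cell lines. The genes encode 5 ligands (AREG, EREG, HBEGF, TGFA and BTC), 3 receptor tyrosine kinases (EGFR, ERBB2 and ERBB3) and ERRFI1, an inhibitor of the receptors. They were chosen by symbol with earlier results of these data known, and all 9 were found among the 22494 features of the deposited tables. The cells of both lines, HEC-1-A and RL-95-2, received either a tRF-20-S998LO9D mimic, which imitates a fragment of a transfer RNA, or its negative control by transfection. Each line gave 1 mimic and 1 control library, and the labels give no dose, time or separate cultures. HEC-1-A is an established line from an endometrial adenocarcinoma and RL-95-2 one from an adenosquamous carcinoma of the endometrium.

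EGF family ligands are made as membrane-bound precursors, and proteases of the ADAM family release the active growth factor. AREG and TGFA bind EGFR, whereas EREG, HBEGF and BTC bind EGFR and ERBB4. Ligand binding joins receptors into dimers that signal through the RAS and ERK cascade and through PI3K and AKT. ERBB2 has no known ligand of its own and ERBB3 has little kinase activity, so each acts mainly with a partner. ERRFI1, also called MIG6, binds the kinase domain of the receptors and is itself induced by their signalling. In the endometrium, EGF family ligands are known from the response to steroid hormones and from implantation.

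Library totals ranged from 33575882 to 46220053 counts. All 6 epithelial markers examined (EPCAM, CDH1, KRT8, KRT18, KRT19 and CLDN4) stood above 1 FPKM in every library. FPKM is the deposited level per transcript length and library size. Of 5 markers of the Müllerian lineage, 2 stood at 1 FPKM or more in each HEC-1-A library and 3 in each RL-95-2 library. PAX8, a transcription factor, stood at 57.6 to 80.3 FPKM and HOXA10 at 1.69 to 2.08 FPKM, while SOX17 had no count in any library. HOXA11 had 0.39 and 0.69 FPKM in the HEC-1-A mimic and control libraries and 3.19 and 3.70 FPKM in those of RL-95-2. EMX2 had 0 counts in HEC-1-A and 0.24 FPKM in each RL-95-2 library. Summed levels reached at most 12.45 FPKM for 5 fibroblast, 3.60 FPKM for 5 blood cell and 6.13 FPKM for 4 endothelial markers. The fibroblast sum was mostly COL1A1, with COL1A2 and DCN at 0 in all libraries, and the endothelial sum was mostly CDH5 in RL-95-2.

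AREG, EREG and BTC lie in a cluster of ligand genes on chromosome 4 together with EPGN, the gene of epigen, another EGFR ligand. In the GENCODE 29 annotation of GRCh38, EPGN spans 74308473 to 74315307, EREG 74365143 to 74388751, AREG 74445134 to 74455009 and BTC 74744759 to 74794686. The gaps between neighbours are 49.8 kb, 56.4 kb and 289.7 kb. The other members lie apart, with HBEGF on chromosome 5, TGFA on 2, EGFR on 7, ERBB2 on 17, ERBB3 on 12 and ERRFI1 on 1. ERBB2 overlaps PGAP3 and MIEN1 on the other strand, which are counted genes too. EGFR and ERRFI1 overlap antisense genes, ERBB3 another protein-coding gene and TGFA an intronic transcript, whose names are not among the counted features. Whether they were counted under other names is not known. Strand use in counting is not given in the sources used here, so the values of these 5 genes can include reads of the overlapping gene.

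Promoters are shown for AREG, HBEGF, EGFR and ERRFI1, the 4 members that, in RL-95-2, stood at least 2-fold lower with the mimic than with the control. Each runs from 250 bases before to 50 bases after the transcript start (RefSeq, GRCh38.p14), and capitals mark motif matches. The windows are chr4:74444886-74445185 on the plus strand for AREG, chr5:140346554-140346853 on the minus strand for HBEGF, chr7:55018767-55019066 on the plus strand for EGFR and chr1:8026260-8026559 on the minus strand for ERRFI1.
AREG: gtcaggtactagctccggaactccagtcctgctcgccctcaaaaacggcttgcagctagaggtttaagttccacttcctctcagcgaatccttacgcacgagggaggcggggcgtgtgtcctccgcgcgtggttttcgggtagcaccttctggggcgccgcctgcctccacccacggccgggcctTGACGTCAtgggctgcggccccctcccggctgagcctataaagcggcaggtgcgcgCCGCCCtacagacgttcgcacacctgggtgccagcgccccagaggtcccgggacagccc
HBEGF: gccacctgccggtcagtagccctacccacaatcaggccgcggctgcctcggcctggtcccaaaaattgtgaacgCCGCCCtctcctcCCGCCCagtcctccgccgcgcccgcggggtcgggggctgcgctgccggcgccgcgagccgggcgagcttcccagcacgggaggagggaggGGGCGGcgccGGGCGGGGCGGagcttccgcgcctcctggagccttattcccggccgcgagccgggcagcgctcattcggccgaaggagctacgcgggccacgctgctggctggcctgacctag
EGFR: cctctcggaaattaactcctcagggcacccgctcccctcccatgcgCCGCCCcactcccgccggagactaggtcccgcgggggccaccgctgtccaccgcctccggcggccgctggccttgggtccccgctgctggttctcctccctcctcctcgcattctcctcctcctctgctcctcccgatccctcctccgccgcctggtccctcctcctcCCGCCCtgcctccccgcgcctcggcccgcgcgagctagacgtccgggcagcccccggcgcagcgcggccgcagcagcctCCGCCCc
ERRFI1: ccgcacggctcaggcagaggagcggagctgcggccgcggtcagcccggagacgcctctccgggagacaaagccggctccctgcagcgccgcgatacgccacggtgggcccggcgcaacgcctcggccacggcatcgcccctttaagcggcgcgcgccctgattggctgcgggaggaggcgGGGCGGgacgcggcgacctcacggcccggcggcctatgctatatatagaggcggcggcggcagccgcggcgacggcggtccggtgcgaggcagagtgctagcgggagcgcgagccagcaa
Searched on both strands were the AP-1 motif TGANTCA, the cyclic AMP response element TGACGTCA, a C/EBP-ATF composite TGATGNAA and the GC box GGGCGG. AREG held the cyclic AMP response element at -65 to -58 from the start, a motif present in 1.85% of 35116 promoters of the same length. All 4 promoters held a GC box, which 45.0% of promoters do, and so did a window of TGFA and that of BTC, not printed. HBEGF had 5 matches, of which the last 2 overlap by 1 base. No match to the AP-1 motif (7.71% of promoters) or the C/EBP-ATF composite (3.62%) occurred in these 4 windows, and EREG held none of the 4 motifs. A window at another EGFR start, not printed, held 2 AP-1 matches and that of ERBB2 held 1. Promoters were found for 8 of the 9 members, all but ERBB3.

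Per length, HEC-1-A held high levels of EREG, AREG, EGFR and ERRFI1. EREG, the epiregulin gene, stood at 112 FPKM in the mimic and 95.4 FPKM in the control library, and AREG, the amphiregulin gene, at 70.2 and 42.03 FPKM. EGFR had 100.2 and 94.96 FPKM, and ERRFI1 124 and 108 FPKM, in the HEC-1-A mimic and control libraries. The order of mean levels in HEC-1-A was ERRFI1, EREG, EGFR, AREG, ERBB2, TGFA, ERBB3, BTC and HBEGF. ERRFI1 and EREG overlapped between their libraries, as did EREG and EGFR, while the later neighbours did not overlap.

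In RL-95-2, receptor transcripts led and most ligands were low. EGFR stood at 85.3 FPKM in the mimic and 191 FPKM in the control library, ERBB2 at 37.1 and 28.7 FPKM and ERBB3 at 17.5 and 20.2 FPKM. TGFA, which encodes transforming growth factor alpha, was the highest of the 5 ligands, with 14.0 FPKM in the mimic and 20.5 FPKM in the control library. EREG had only 0.063 and 0.17 FPKM there, from 16 and 37 counts, and BTC, the betacellulin gene, 0.15 and 0.29 FPKM, from 22 and 38 counts. The order of mean levels was EGFR, ERBB2, ERRFI1, ERBB3, TGFA, AREG, HBEGF, BTC and EREG. ERBB2 and ERRFI1 overlapped between their libraries, as did ERRFI1 and ERBB3, ERBB3 and TGFA, and BTC and EREG.

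**Figure D1:**
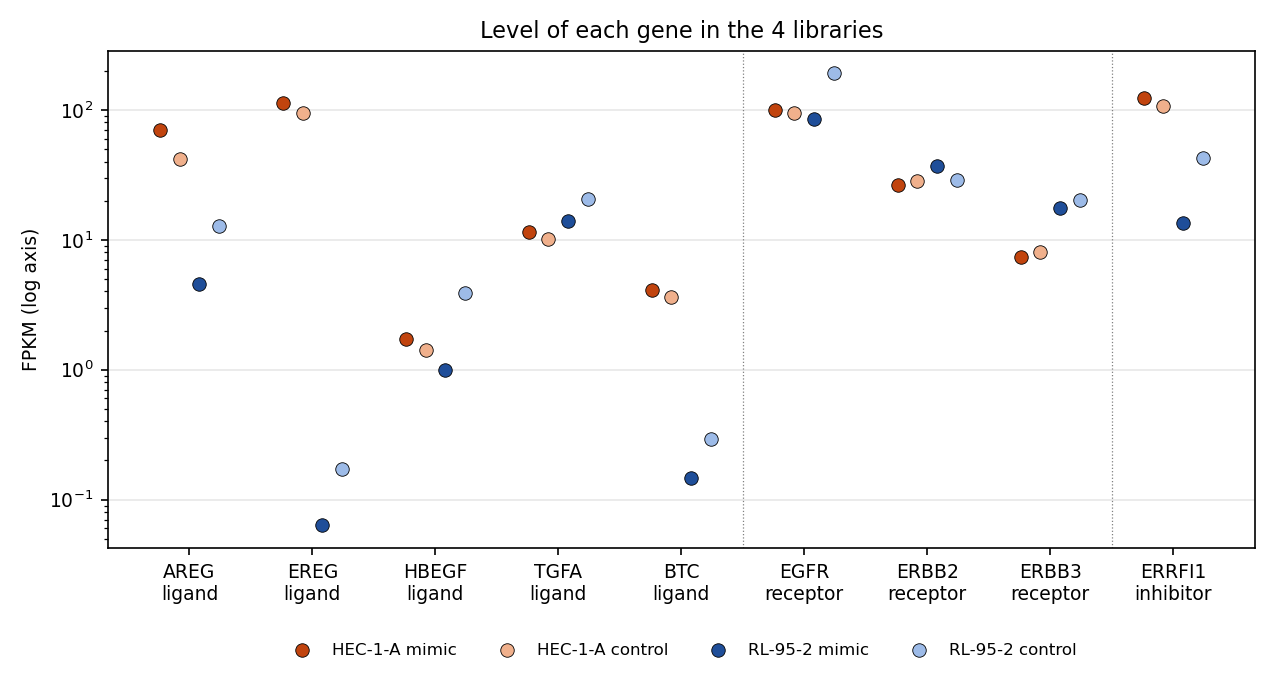
FPKM on a log axis for the 9 genes, 1 point per library, with each line's mimic library left of its control. EREG is near 100 FPKM in both HEC-1-A libraries and below 1 FPKM in both RL-95-2 libraries, while ERBB2 stays between 26.4 and 37.1 FPKM.

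Between the lines, 3 ligands and ERRFI1 were higher in HEC-1-A and ERBB3 was higher in RL-95-2. That is 5 of 9 members called, while edgeR with Benjamini-Hochberg adjustment called 35.1% of 15957 features, with 16.7% on the HEC-1-A side and 18.3% on the RL-95-2 side. In bulk RNA, fewer cells that express a gene and less of its RNA per cell cannot be told apart. EREG was 931-fold higher in HEC-1-A (log2 fold change 9.86, SE 0.59, adjusted p = 9.9e-05 by edgeR's quasi-likelihood test, n = 2 libraries per line). BTC was 18.2-fold higher (log2 fold change 4.18, SE 0.51, adjusted p = 0.0016) and AREG 7.30-fold higher (2.87, SE 0.58, adjusted p = 0.011). ERRFI1 was 4.99-fold higher (2.32, SE 0.52, adjusted p = 0.016). For these 4 genes both HEC-1-A libraries lay above both RL-95-2 libraries, as they did for 36.9% of the 15957 features. ERBB3, the partner receptor for neuregulin signalling, was 2.30-fold higher in RL-95-2 (log2 fold change of HEC-1-A over RL-95-2 -1.20, SE 0.23, adjusted p = 0.0090), with both HEC-1-A libraries below both RL-95-2 libraries, as for 38.6% of features.

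The other 4 genes were not called between the lines. The log2 fold change of HEC-1-A over RL-95-2 was -0.59 for TGFA (SE 0.29, adjusted p = 0.16) and -0.34 for EGFR (SE 0.40, adjusted p = 0.55). It was -0.29 for HBEGF (SE 0.65, adjusted p = 0.76) and -0.20 for ERBB2 (SE 0.24, adjusted p = 0.55).  All 9 members had passed the count filter in all 4 libraries. The 2 libraries of a line differ in transfection and nothing marks them as separate cultures, so p-values reflect the spread among these 4 libraries alone.

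The size of the line difference depended on which transfection was compared. AREG had a log2 difference of 4.07 between the mimic libraries and 1.68 between the control libraries, ERRFI1 3.36 and 1.28, BTC 4.72 and 3.49, and EREG 10.7 and 8.97. HBEGF had 0.91 between the mimic libraries and -1.48 between the control libraries, and EGFR 0.36 and -1.04, so their order between the lines turned round. ERBB3 differed little, with -1.08 and -1.32. TGFA had -0.13 and -1.06, and ERBB2 -0.37 and -0.04.

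**Figure D2:**
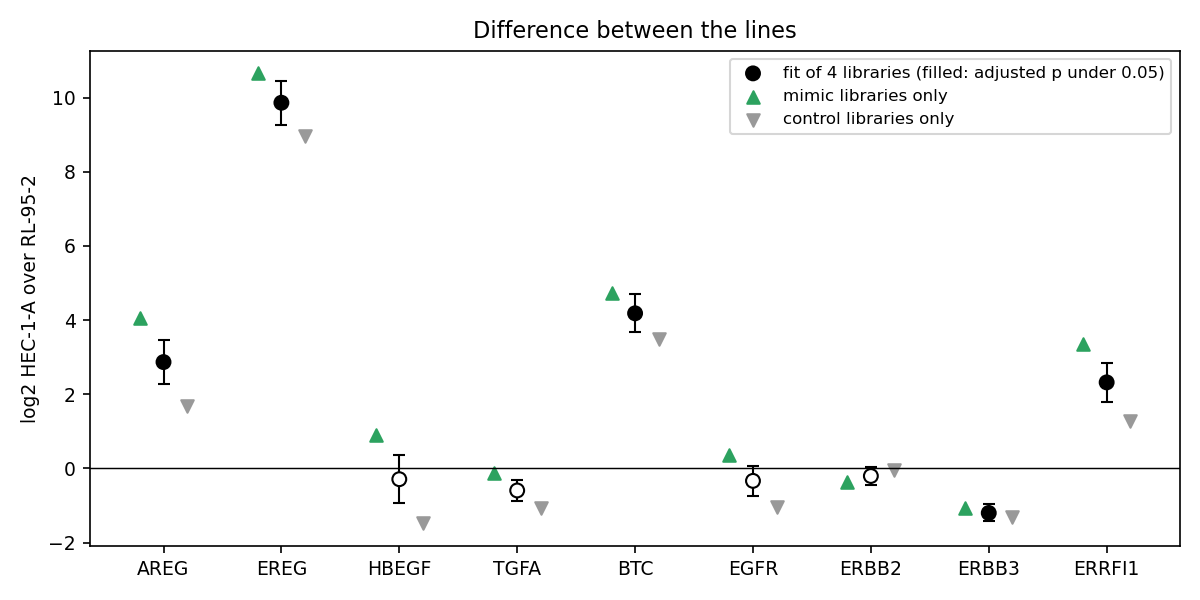
Log2 fold change of HEC-1-A over RL-95-2 for the 9 genes, with circles and SE bars from the fit of 4 libraries and triangles for the mimic libraries only and the control libraries only. EREG, BTC, AREG and ERRFI1 are above 0 in all 3 values, ERBB3 is below 0 in all 3, and HBEGF and EGFR lie on both sides of 0.

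The lines also differed in which ligand made up most of the ligand transcripts. Over the 5 member ligands, FPKM summed to 200.015 in the HEC-1-A mimic and 153 in the HEC-1-A control library, of which EREG was 56.2% and 62.5%. In RL-95-2 the sum was 19.7 FPKM with the mimic and 37.7 FPKM with the control, of which TGFA was 70.8% and 54.3% and EREG 0.32% and 0.46%. These shares are descriptions of transcript levels, with no test.

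Outside the 9 members, EPGN ran opposite to its neighbours EREG, AREG and BTC. EPGN stood at 0.22 and 0.25 FPKM in the HEC-1-A mimic and control libraries, against 23.3 and 39.7 FPKM in those of RL-95-2. It was 128-fold higher in RL-95-2 (log2 fold change of HEC-1-A over RL-95-2 -7.00, adjusted p = 8.9e-05 by edgeR). Counted over all 11 ligand genes of the ERBB receptors, EPGN made up 42.9% of ligand FPKM in the RL-95-2 mimic and 41.3% in the RL-95-2 control library. NRG1, the neuregulin 1 gene, whose product binds ERBB3 and ERBB4, made up 16.9% and 18.2% there and 8.73% and 8.74% in HEC-1-A. NRG3 had no count in any library, EGF itself at most 0.30 FPKM, and ERBB4 at most 0.090 FPKM.

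**Figure D3:**
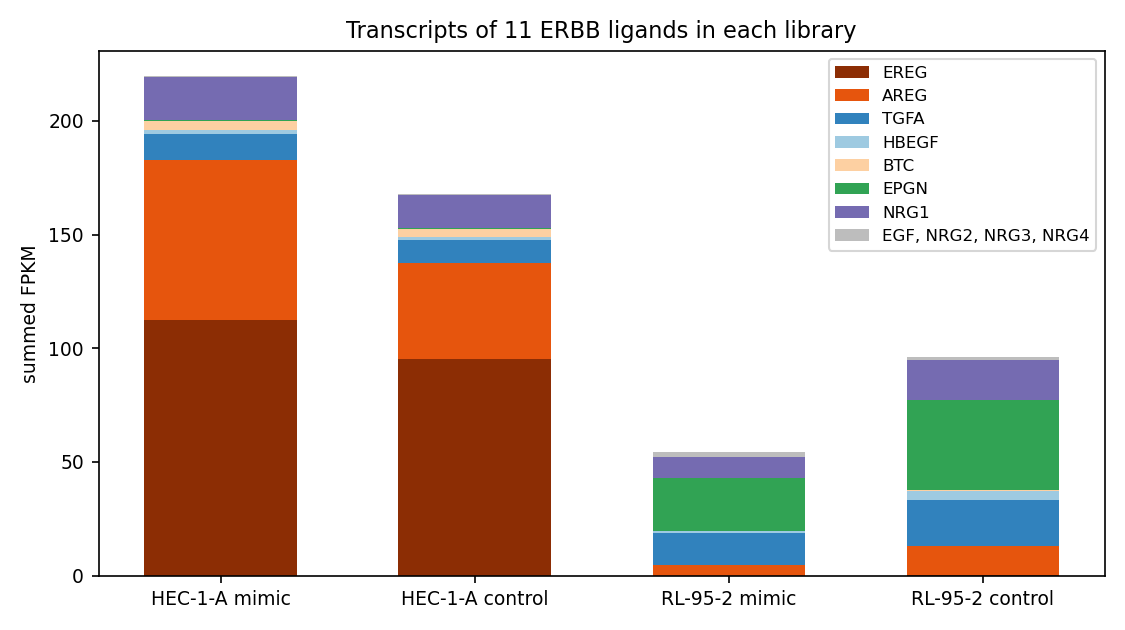
Stacked bars of FPKM for 11 ligand genes, summed in each library. The bars reach 220 FPKM in the HEC-1-A mimic and 168 FPKM in the HEC-1-A control library, mostly EREG and AREG, and 54.4 and 96.0 FPKM in the RL-95-2 mimic and control libraries, led by EPGN.

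Within HEC-1-A, AREG was the member furthest from its control, and 0 of the 9 members were at least 2-fold apart. Of 12981 features that averaged 1 CPM or more in the line, 1.11% were at least 2-fold apart, 0.871% higher and 0.239% lower. CPM are counts scaled to library size, here by the trimmed mean of M values (TMM), and ratios carry a prior count of 2. AREG had 4516 counts (101 CPM) with the mimic and 1958 counts (59.1 CPM) with the control. Its level was 1.71-fold higher with the mimic (log2 ratio 0.77, exact 95% counting interval 0.69 to 0.85).

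All 5 ligands had a log2 ratio above 0 in HEC-1-A, as had 53.6% of the 12981 features measured in the line. EREG had 602 CPM with the mimic and 499 CPM with the control (log2 ratio 0.27, interval 0.24 to 0.30), and TGFA 55.7 and 48.5 CPM (0.20, interval 0.11 to 0.29). HBEGF, the gene of heparin-binding EGF, had 4.76 and 3.86 CPM (0.30, interval -0.02 to 0.63), and BTC 13.0 and 11.4 CPM (0.19, interval -0.002 to 0.38). The intervals of HBEGF and BTC included 0. ERRFI1 had 432 CPM with the mimic and 366 CPM with the control (log2 ratio 0.24), and EGFR 1127 and 1050 CPM (0.10). ERBB2 (-0.10) and ERBB3 (-0.16) had log2 ratios below 0. The median of the 9 was 0.20, beside 0.02 over all features measured in the line. Counting intervals cover counting error only, and with 1 library per transfection no difference within a line has a replicate check.

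Within RL-95-2, AREG, HBEGF, EGFR and ERRFI1 were at least 2-fold lower with the mimic, which is 4 of the 7 members with a mean of at least 1 CPM. None of the 7 was at least 2-fold higher. Among all 13151 features measured in the line, 6.52% were at least 2-fold lower and 4.71% at least 2-fold higher, so 41.9% of those apart were higher (55.8% with library totals). The median log2 ratio of the 7 members was -1.30, beside 0.00 over all features. HBEGF had 124 counts (2.52 CPM) with the mimic and 423 counts (10.8 CPM) with the control, a 4.25-fold lower level (log2 ratio -2.09, interval -2.41 to -1.82). ERRFI1 had 42.1 CPM with the mimic and 150 CPM with the control, 3.57-fold lower (-1.84, interval -1.91 to -1.76). The receptor inhibitor and this ligand were thus the members furthest from their control.

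AREG, the member with the highest ratio in HEC-1-A, was 3.08-fold lower with the mimic in RL-95-2. It had 5.96 CPM with the mimic against 18.5 CPM with the control (log2 ratio -1.62, interval -1.83 to -1.43). EGFR, the receptor of all 5 ligands, was 2.46-fold lower, at 876 CPM with the mimic and 2152 CPM with the control (-1.30, interval -1.31 to -1.28). The ratio of EGFR to ERBB2 was 2.30 in the mimic and 6.64 in the control library, on the FPKM scale. TGFA was 1.65-fold lower, at 61.1 CPM with the mimic and 101 CPM with the control (log2 ratio -0.72, interval -0.79 to -0.65). The other receptors were closer to their control levels. ERBB3 had a log2 ratio of -0.41 (interval -0.46 to -0.35) and ERBB2 of 0.24 (interval 0.19 to 0.29), the single member above 0. EREG and BTC, under 1 CPM in this line, had log2 ratios of -1.42 (interval -2.49 to -0.66) and -1.05 (interval -1.95 to -0.33).

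Genes of the cellular stress response were also lower with the mimic in RL-95-2. All 6 stress genes examined (ATF3, DDIT3, TRIB3, ASNS, DDIT4 and CHAC1) were at least 2-fold lower with the mimic in RL-95-2, beside 6.52% of features measured. The 6 were listed with earlier results of these data known, so this count is a description. The 6 genes summed to 172 FPKM with the mimic against 1210 FPKM in the control. In HEC-1-A their sum was 637 FPKM with the mimic and 597 FPKM with the control, and 0 of the 6 were 2-fold apart. Summed epithelial markers were 1896 FPKM in the RL-95-2 mimic and 995 FPKM in the RL-95-2 control library. KRT8 was the 1 of 6 at least 2-fold higher (2 of 6 with library totals), beside 4.71% of features measured in the line. The log2 ratios were 1.90 for KRT8, 0.88 for KRT19 and 0.34 for KRT18. CDH1 had 0.02, EPCAM -0.21 and CLDN4 -0.50, and the median of the 6 was 0.18. The part of these differences in the members' ratios was not tested.

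**Figure D4:**
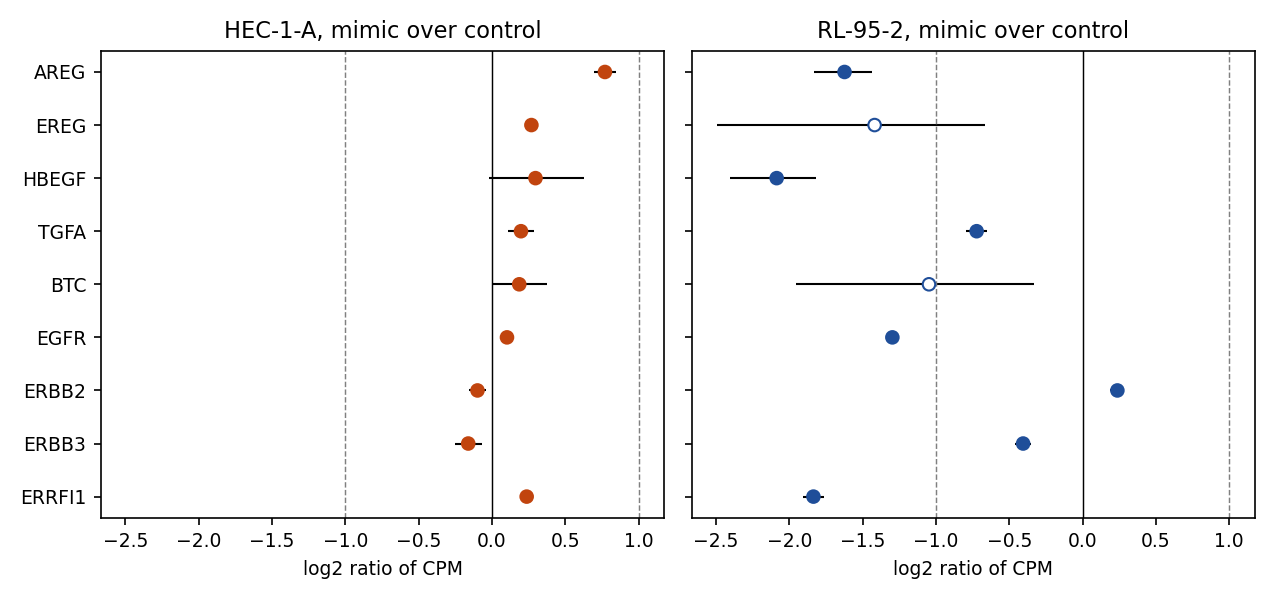
Log2 ratio of CPM, mimic over control, within each line, with exact 95% counting intervals and dashed lines at 2-fold; open circles have a mean under 1 CPM. All HEC-1-A values lie between -0.16 and 0.77, whereas in RL-95-2 all genes but ERBB2 lie below 0.

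Over both lines, no member passed the test. With the cell line as a block, edgeR's quasi-likelihood test called 0 of the 9 members, and 0 had an unadjusted p under 0.05. It called 0 of 15957 features, with 167 at an unadjusted p under 0.05. DESeq2 and limma-voom also called 0 members. ERRFI1 had a log2 fold change of -0.80 (SE 0.50), EGFR of -0.60 (SE 0.40), HBEGF of -0.91 (SE 0.66) and AREG of -0.40 (SE 0.56), each with an edgeR adjusted p of 0.9999. For TGFA, BTC, EREG and ERBB3 the fold changes lay between -0.39 and -0.26, and ERBB2 had 0.07. For 8 of the 9 members, all but ERBB3, the log2 ratios had opposite signs in HEC-1-A and RL-95-2, as they had for 54.6% of the 15957 features. The 8 include HBEGF and BTC, whose HEC-1-A intervals included 0. ERBB3 was below 0 in both.

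Some other genes of the pathway were at least 2-fold lower with the mimic in RL-95-2. They numbered 3 of 10 ERK output, 1 of 6 shedding, 0 of 12 attenuation and 1 of 15 adaptor and MAP kinase genes. Of the PI3K, AKT, PLC and STAT genes 0 of 9 were, and of the other ligands 1 of 4 measured. Over all measured features of the line, 6.52% were at least 2-fold lower and 49.9% had a log2 ratio below 0. Of 6 genes for ligand shedding, 6 had a ratio below 0 in RL-95-2. ADAM17, the main sheddase of AREG, HBEGF and TGFA, had a log2 ratio of -1.10 and ADAM10 of -0.15. Of 12 genes listed for receptor attenuation and turnover, among them ubiquitin ligases and LRIG proteins, 11 were below 0 (median -0.46), with 0 at least 2-fold lower. LRIG1, a negative regulator of EGFR, had -0.90 and SOCS4 0.11. Scaled to library totals, which raised the median log2 ratio of all features in RL-95-2 by 0.13, 6 of 6 and 10 of 12 were below 0 and ADAM17 was under 2-fold lower.

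ERK output genes are transcribed when the ERK cascade is active. In RL-95-2, 9 of these 10 genes were below 0 (median -0.84) and 3 were at least 2-fold lower, EPHA2 (-1.42), PHLDA1 (-1.38) and DUSP6 (-1.04). EPHA2 encodes an ephrin receptor kinase and DUSP6 a phosphatase that inactivates ERK. CCND1, the cyclin D1 gene, had 0.22. With library totals, 9 of 10 were again below 0 and 2 at least 2-fold lower, without DUSP6. In HEC-1-A, 9 of the 10 were measured and 6 of them were above 0 (median 0.10), beside 53.6% of features measured in the line. The 9 ratios lay between -0.13 for CCND1 and 0.40 for PHLDA1.

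Signal relay genes were mostly under 2-fold apart. Of 15 adaptor and MAP kinase genes, 11 were below 0 in RL-95-2 (median -0.29; 10 with library totals). SOS2, a nucleotide exchange factor for RAS, was at least 2-fold lower (-1.43), and HRAS stood at 0.38. For 9 PI3K, AKT, PLC and STAT genes the RL-95-2 median was 0.22, between -0.59 for PIK3CA and 0.57 for AKT1. NRG1 was at least 2-fold lower in RL-95-2 (-1.06), with 9.19 FPKM in the mimic and 17.5 FPKM in the control library, and NRG4 stood just under 2-fold higher (0.999) at 1.12 and 0.49 FPKM. With library totals NRG1 was under and NRG4 past 2-fold. In HEC-1-A no measured gene of these 6 lists was at least 2-fold apart. The HEC-1-A extremes were EGF (0.33) and NRG1 (0.31) among ligands, RHBDF1 (0.19) and ADAM10 (-0.14) for shedding, NRAS (0.25) and SOS1 (-0.12) for the relay, STAT3 (0.22) and PIK3R2 (-0.24), and RNF41 (0.14) and SOCS5 (-0.37) for attenuation. EdgeR over both lines called 0 genes of the 6 lists, and 0 had an unadjusted p under 0.05.

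**Figure D5:**
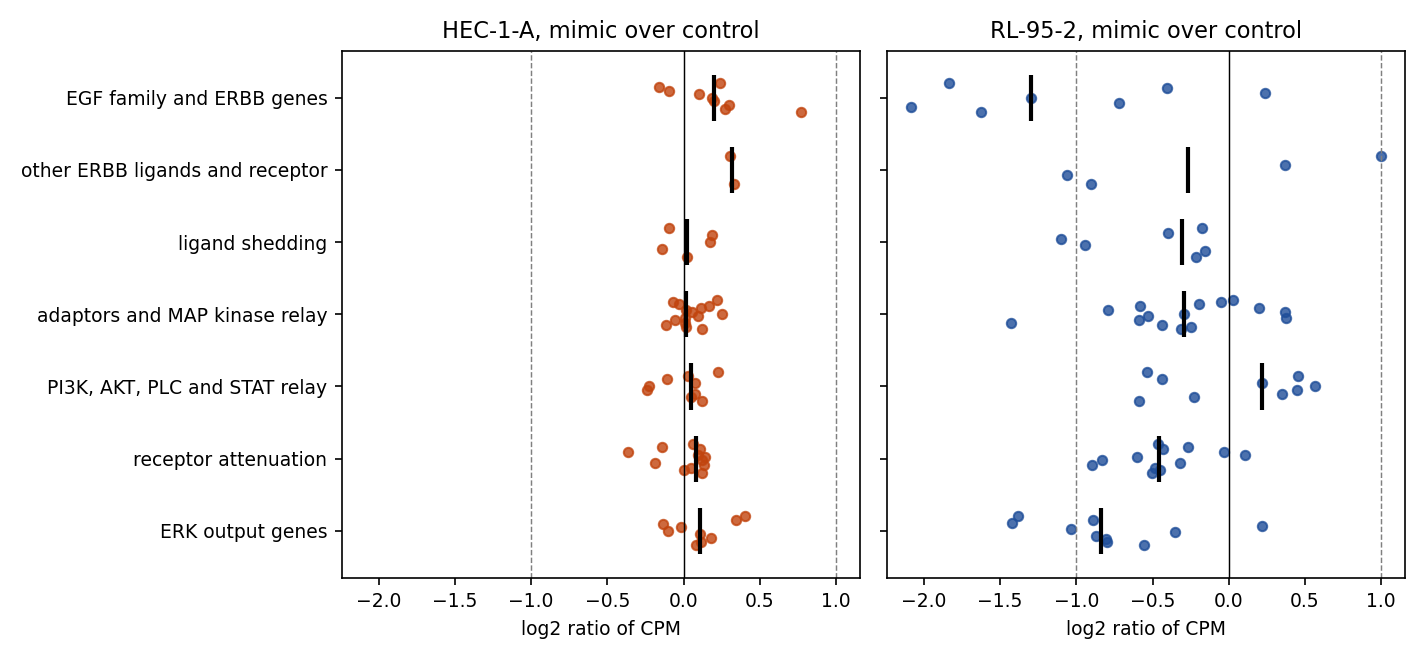
Log2 ratio of CPM, mimic over control, for the measured EGF family and ERBB genes and for 6 pathway lists in each line, 1 point per gene, with a bar at each median and dashed lines at 2-fold. In RL-95-2 the medians are -1.30 for the EGF family and ERBB genes and -0.84 for ERK output genes, and in HEC-1-A 0.20 and 0.10.

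Between the lines, edgeR called 6 of the 10 ERK output genes higher and 3 lower in HEC-1-A, beside 16.7% and 18.3% of all features. Higher in HEC-1-A were SPRY2, SPRY4, ETV4, ETV5, DUSP6 and CCND1, with log2 fold changes of HEC-1-A over RL-95-2 from 1.04 to 1.95. Lower were PHLDA1 (-4.25), EPHA4 (-6.54) and DUSP4 (-1.57). Of 15 adaptor and MAP kinase genes 4 were called, a share no higher than the 35.1% of all features: BRAF higher (1.17) and SHC1, GAB1 and HRAS lower (-1.02, -1.10 and -0.94). AKT2 (1.74), PLCG1 (1.19) and PIK3R1 (0.79), 3 of 9 PI3K, AKT, PLC and STAT genes tested, were called higher. STAT3 (-1.63) and AKT1 (-0.91), 2 of the 9, were called lower, beside 16.7% higher and 18.3% lower of all features. RNF41 (1.07) and HGS (1.09), 2 of 12 genes of the attenuation list, were called higher, and ADAM12 (-7.66), 1 of 6 shedding genes, lower. For the attenuation and shedding lists the share called was below the 35.1% of all features. All of these genes were named after their calls were seen. Of 6 tested genes among the other ligands and ERBB4, 3 were called lower, EPGN, NRG2 (-4.06) and the receptor ERBB4 (-2.62, adjusted p = 0.0499). ADAM12 had 4 and 0 counts in the HEC-1-A mimic and control libraries, NRG2 6 and 2 and ERBB4 7 and 4, so their fold changes are uncertain.

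By distance in centred log2 CPM over the 4 libraries, the genes most like each member were mostly outside the pathway. Among 10895 named features with a mean of at least 5 CPM, ERBB2 was nearest to LONP2 (distance 0.023) and CAMK2G (0.025), and ERBB3 to RILPL1 (0.031) and SNX18 (0.047). TGFA was nearest to ATG2A (0.055) and TESK2 (0.058), EGFR to MARS (0.10) and GPCPD1 (0.11), and HBEGF to FADS3 (0.12) and NEDD4 (0.22). ERRFI1 was nearest to KLF6 (0.16), a transcription factor of the early response, and SLAIN1 (0.21), and BTC to PRKCB (0.14) and CD22 (0.21). AREG lay further from any candidate, with SMAD7 (0.30), an inhibitor of TGF-beta signalling, and MUC4 (0.32), a membrane mucin. EREG lay furthest, with TNC (0.62) and BCHE (0.97). The distances rest on 4 libraries and are descriptions.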

How the data were processed

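The libraries are paired-end sequencing libraries of poly(A) RNA, per the labels' protocols. The authors deposited raw counts and FPKM values per gene for the same 4 libraries. CASAVA, HISAT2 and the GRCh38 (hg38) build are named in the submitters' processing notes. For the counter, annotation, gene lengths and strand setting, the sources used here give nothing.

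The deposited counts entered edgeR 4.0.16 in R 4.3.3, with TMM scaling, a filter on low counts (filterByExpr by transfection, minimum count 10), cell line and transfection in the model and Benjamini-Hochberg adjustment over 15957 features at an FDR of 0.05. The block pairs the libraries of 1 cell line, named in their labels (the replicate block). Deviations of same-line libraries from the transfection means correlated at 0.926 across 15957 features. The fit has 1 residual degree of freedom and 5.44 prior degrees of freedom. Within a line no p-value was computed. Log2 ratios of TMM-scaled CPM used a prior count of 2, with Clopper-Pearson intervals from the 2 counts. Genes count as measured from a mean of 1 CPM in that line, and as apart from 2-fold. Levels between genes use the authors' FPKM.

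Members, lists and tests were chosen with earlier results of these data known. All 9 members are named. From each list, genes at least 2-fold apart and the highest and lowest ratios in each line are named. For each member, the 2 nearest features outside the members are named. Alternatives were DESeq2 1.42.0, limma 3.58.1 (voom, and log2(FPKM + 1) or log2(FPKM + 0.1)), other scalings, filters and prior counts, no block, and each line or transfection left out. The edgeR procedure was tested on simulated counts for the sign and median size of set changes. Responses that differ between the lines were not simulated, so the simulation does not bear on them.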

Additional observations from a re-analysis of the deposited data

Results flagged for a closer look

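For 6 genes the counting intervals lay on opposite sides of 0 in the 2 lines, as they did for 21.1% of the 15957 features. These intervals cover counting error only and are narrow for abundant genes, and the difference between the lines' responses was not tested, since each line has 1 library per transfection. The difference of log2 ratios, HEC-1-A minus RL-95-2, was 2.39 for AREG, 1.69 for EREG, 0.921 for TGFA, 1.40 for EGFR and 2.07 for ERRFI1, all higher with the mimic in HEC-1-A and lower with the mimic in RL-95-2. For ERBB2 it was -0.336, with the opposite signs.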

How the results depend on the processing

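The count of members at least 2-fold lower in RL-95-2 was 4 under RLE, library total, prior count 0.5, both FPKM scales and a minimum of 5 CPM, and 6 with no filter on low counts, where EREG and BTC enter. On log2(FPKM + 1) the RL-95-2 value was -1.30 for HBEGF, -0.14 for EREG and -0.18 for BTC. No member was 2-fold apart in HEC-1-A under any of these. Between the lines, 4 members were higher and 1 lower in HEC-1-A under every tool and scaling, but only 2 were higher with at least 1 CPM in all 4 libraries, a filter that drops EREG and BTC. That filter gave 1673 features higher and 1671 lower.

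Over both lines, no alternative called a member. The fits with no replicate block turned AREG to 0.46, EREG to 0.27 and BTC to 0.12, and EREG was 0.0023 with limma-voom and 0.047 on log2(FPKM + 1). Without RL-95-2 and without HEC-1-A, the log2 values were 0.77 and -1.62 for AREG, 0.27 and -1.42 for EREG, 0.30 and -2.09 for HBEGF and 0.20 and -0.72 for TGFA. They were 0.19 and -1.05 for BTC, 0.10 and -1.30 for EGFR, -0.10 and 0.24 for ERBB2 and 0.24 and -1.84 for ERRFI1. Between the lines, HBEGF was 0.91 and EGFR 0.36 without the control libraries, and -1.48 and -1.04 without the mimic libraries. Over all features, DESeq2 called 1 higher over both lines, and limma on log2(FPKM + 0.1) called 2 higher and 1 lower.

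Features at least 2-fold higher and lower in HEC-1-A numbered 13 and 13 on log2(FPKM + 1), 18 and 11 at a minimum of 5 CPM and 1165 and 703 with no filter, against 113 and 31. In RL-95-2 they numbered 352 and 375 on log2(FPKM + 1) and 1691 and 1820 with no filter, and 336 were higher at a minimum of 5 CPM, against 619 and 857. The share higher among features apart was 50% on log2(FPKM + 1) in HEC-1-A, against 78.5%, and 55.8% by library total and 57.2% on log2(FPKM + 0.1) in RL-95-2, against 41.9%. Those RL-95-2 settings moved the median of all genes to 0.13 and 0.14. The cause of these changes was not tested. Low counts limit EREG and BTC in RL-95-2.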
